A study of Mus musculus with 2 samples.

Results

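Macrophages that carry RNA of Gpnmb, Arg1, Mmp12 or Trem2 were picked out of single-cell libraries of pressure-loaded mouse left ventricle, and 165 of 26178 barcodes met the rule. A barcode was a member if it held at least 2 UMIs (unique molecular identifiers, each standing for 1 captured RNA molecule) summed over those 4 genes and at least 1 over the immune genes Ptprc, Csf1r, Cd68, Lyz2 and Ctss. It could hold at most 1 UMI over Pecam1, Cdh5 and Pdgfra, which mark endothelial cells and fibroblasts, and less than 2.5% of its UMIs outside mitochondrial genes could come from the cardiomyocyte genes Ttn, Myh6, Ryr2 and Tnnt2. The levels of these genes chose the members and are given only as a description. Members were set beside other macrophages of the same library, 1616 barcodes with at least 3 UMIs over C1qa, C1qb, C1qc, Mrc1, F13a1 and Csf1r that passed the same limits on endothelial, fibroblast and cardiomyocyte genes and were not members. Levels of those 6 genes are likewise no result.

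The study concerns the part that p53, encoded by Trp53, plays in cardiac hypertrophy. Each of its 2 libraries came from left ventricles of 3 mice mixed into 1 sample, taken 6 weeks after transverse aortic constriction (TAC), an operation that narrows the aorta and makes the heart pump against a higher pressure. The first is labelled wild-type, the second p53 knockout. Both groups had TAC, and no unoperated heart was analysed here. The labels used here give neither the knockout allele nor the strain, age or sex of the mice, and they name the cells cardiomyocytes although many cell classes are present. Each group is 1 library, so nothing could be tested across samples: genotype, mice, dissection and library preparation cannot be told apart, and all intervals below are 95% and cover counting error only.

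Gpnmb encodes a glycoprotein of lysosomes and the cell surface, Arg1 the enzyme that splits arginine into ornithine and urea, Mmp12 the macrophage elastase that cuts matrix, and Trem2 a surface receptor for lipids and lipoproteins. Macrophages with this gene set appear in injured heart, arteries, fat and lung, where they take up dead cells, lipid and debris, and they are distinct from the resident macrophages of the resting heart, which carry Lyve1, Timd4, Folr2 and Cd163. Spp1 (osteopontin) and Lgals3 (galectin-3), which are often listed with them, are secreted proteins tied to fibrosis.

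The 4 genes that define the members lie on different chromosomes of GRCm38: Gpnmb on chromosome 6 (49036546 to 49070929, plus strand), Arg1 on chromosome 10 (24915221 to 24927484, minus strand), Mmp12 on chromosome 9 (7344381 to 7369499, plus strand) and Trem2 on chromosome 17 (48346401 to 48354147, plus strand). Promoter windows of 300 bases, from 250 bases before to 50 bases after a RefSeq start (build GRCm38.p6), are shown for the 3 of them that the table used here holds, to set the start regions of genes found together in these barcodes side by side. Capitals mark the AP-1 site TGACTCA or its reverse complement TGAGTCA, searched on both strands.
Gpnmb promoter, chr6:49036268-49036567, plus strand: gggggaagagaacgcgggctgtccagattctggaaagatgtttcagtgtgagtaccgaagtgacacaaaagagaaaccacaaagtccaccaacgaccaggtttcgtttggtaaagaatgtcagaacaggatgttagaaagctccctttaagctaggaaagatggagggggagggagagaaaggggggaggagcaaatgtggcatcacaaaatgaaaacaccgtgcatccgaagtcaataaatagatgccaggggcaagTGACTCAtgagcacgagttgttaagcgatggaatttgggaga
Mmp12 promoter, chr9:7347124-7347423, plus strand: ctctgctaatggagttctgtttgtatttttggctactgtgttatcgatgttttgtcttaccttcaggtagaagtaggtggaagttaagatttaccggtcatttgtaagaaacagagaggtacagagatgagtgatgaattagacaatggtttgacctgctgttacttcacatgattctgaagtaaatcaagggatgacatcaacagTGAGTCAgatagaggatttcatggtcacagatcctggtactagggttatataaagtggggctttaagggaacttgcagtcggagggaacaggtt
Trem2 promoter, chr17:48346151-48346450, plus strand: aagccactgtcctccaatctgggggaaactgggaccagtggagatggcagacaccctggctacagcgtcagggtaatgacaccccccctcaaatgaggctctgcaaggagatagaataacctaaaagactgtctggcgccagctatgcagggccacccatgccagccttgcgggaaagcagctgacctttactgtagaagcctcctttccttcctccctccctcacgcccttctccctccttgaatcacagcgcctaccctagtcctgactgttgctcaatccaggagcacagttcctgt
The site lies 8 bases past the start in the Gpnmb window and 44 bases before the start in the Mmp12 window, and the Trem2 window holds none. The table gives Mmp12 a further start upstream, and its window, chr9:7344147-7344446, holds none either. Of 32817 windows in the table, 5.2% hold this site. A match is a run of letters and was not tested as a binding site.

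Over its 16060 barcodes the library labelled wild-type summed to 18897913 UMIs. The 10118 barcodes of the library labelled p53 knockout summed to 20918824. The lowest total per barcode was 500 in both. The median member had 1576 UMIs in the former and 1756 in the latter, against 1008.5 and 1365.5 in other macrophages. A UMI of Xist, the RNA of the inactive X chromosome, was found in 0 of 21 members of the first library and 101 of 144 of the second, and a Y-linked UMI in 12 and 1, so the libraries also differ in sex-linked RNA. Of 105 barcode sequences present in both libraries, 3 belonged to a member. Trp53 RNA was found under both labels. Its CPM (the UMIs of a gene summed over a class and scaled to a common total of nuclear-encoded UMIs) was 57.6 (interval 43.8 to 74.3) in wild-type-labelled other macrophages, against 65.5 (51.5 to 82.3) in those with the p53 knockout label. Members of the latter library had 49.7 CPM (28.4 to 80.7), and the 21 members of the former had 2 UMIs, too few to read. A 3' tag need not lie in the deleted part of a gene, so these values do not check the genotype.

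Members made up a larger share of macrophages under the p53 knockout label. They were 21 of 947 macrophage barcodes in the library labelled wild-type, 2.22% (Clopper-Pearson interval 1.38 to 3.37), and 144 of 834 in the other, 17.3% (14.8 to 20.01). Over all barcodes the shares were 0.131% (0.0810 to 0.200) and 1.42% (1.20 to 1.67). Other macrophages differed far less, at 5.77% (5.41 to 6.14) and 6.82% (6.34 to 7.33) of barcodes. Because a deeper barcode is likelier to reach 2 UMIs, every barcode was also thinned to 500 UMIs before the rule was applied, and the shares of macrophages were then 1.11% (0.482 to 2.18, 8 of 718) and 9.42% (7.12 to 12.2, 52 of 552). The intervals of the libraries did not overlap at either depth. No test of the difference is possible with 1 library on each side.

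**Figure D1:**
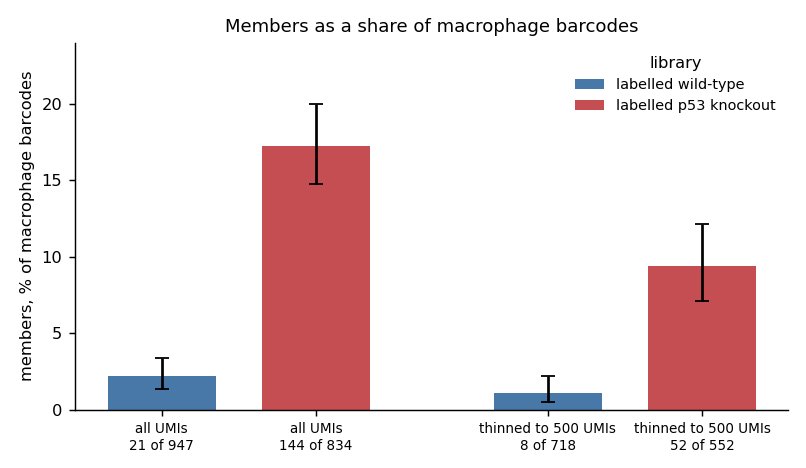
Members as a percentage of macrophage barcodes (members plus other macrophages) in the libraries labelled wild-type (blue) and p53 knockout (red), with all UMIs and after thinning each barcode to 500 UMIs; bars start at 0 and error bars are 95% Clopper-Pearson intervals for counting error. The share is 2.22% against 17.3% with all UMIs and 1.11% against 9.42% after thinning.

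Most members of the library labelled p53 knockout held more than the minimum. The median was 4 UMIs over the 4 genes and the highest 64, 27 members held 10 or more, and 41 sat at the threshold of 2 UMIs. Just outside it, 133 barcodes with 1 UMI passed the other limits. In the library labelled wild-type the median was 3 UMIs, the highest 10, and 9 of 21 members sat at the threshold, with 32 barcodes just outside. Endothelial barcodes of the library labelled p53 knockout, which should lack these genes, held a Gpnmb UMI in 0.380% and an Arg1 UMI in 0.114% of cases after thinning, against 1.45% and 0.290% of other macrophages. The shares in members are set by the rule and cannot be read against these. Endothelial shares also differed between the libraries labelled p53 knockout and wild-type. Without thinning, Gpnmb was found in 1.33% and 0.291% of endothelial barcodes, and Arg1 in 0.607% and 0.0970%. Mmp12 was found in 0.797% and 0.1455%, and Trem2 in 0.607% and 0%. Those barcodes were deeper in the former, with a median of 1924 against 1143 UMIs. The part of free RNA in the shares of members was not tested.

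The libraries also differed in which of the 4 genes made a barcode a member. In the library labelled p53 knockout, 79 of 144 members held Gpnmb, 66 Trem2, 53 Arg1 and 51 Mmp12, and 66 of the 144 held only 1 of the 4. In the library labelled wild-type, 12 of 21 held Trem2, 6 Mmp12, 4 Gpnmb and 1 Arg1, and 19 of the 21 held only 1 of the 4. Summed over members, Gpnmb stood at 1084 CPM (974 to 1204) in the library labelled p53 knockout and 464 CPM (265 to 753) in the other, Arg1 at 696 (608 to 793) and 116 (31.6 to 297), Mmp12 at 929 (827 to 1041) and 725 (469 to 1070), and Trem2 at 388 (323 to 463) and 696 (446 to 1035). With Trem2 left out of the rule, members were 1.17% and 14.1% of macrophages.

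The rule itself required an immune UMI and limited endothelial, fibroblast and cardiomyocyte genes, so those genes do not test the label. Of 144 members of the library labelled p53 knockout, 107 also passed the minimum for other macrophages, as did 14 of 21 in the library labelled wild-type, though Csf1r counts in both rules. Summed T or NK cell markers were higher in members of the library labelled p53 knockout than in other macrophages, at 152 against 66.4 CPM, with 46 of the 49 UMIs from Il7r, the interleukin 7 receptor, and 8 of the 10 markers at 0 UMIs. Summed neutrophil markers were at 395 against 298 CPM with 2 of 10 at 0, and dendritic cell markers at 168 against 201 CPM with 3 of 10 at 0. The part of such cells in the results was not tested. The summed fibroblast, endothelial and cardiomyocyte markers were 2256, 783 and 1917 CPM, all below the 2731, 1133 and 3037 CPM of other macrophages. A further 8 members of that library, none of the other, held at least 5 UMIs of mesothelial genes (6 barcodes, from the lining of the heart) or adipocyte genes (2 barcodes), lists chosen after the counts were seen. In 6 of these 8, Trem2 was the only gene of the 4. Trem2 was not confined to macrophages there: among mesothelial barcodes with no UMI of the immune genes, 21 of 165 held a Trem2 UMI (12.7%, 8.05 to 18.8), against 0.607% of endothelial barcodes. One adipocyte-gene barcode, with 9575 UMIs, carried 260 of the 262 Nnat, 105 of the 109 Car3 and 53 of the 55 Cidec UMIs of all members. Values that these 8 barcodes set are given with and without them, and the remaining 136 members of the library labelled p53 knockout are called the 136 cleaned members.

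In that library, members stood apart from other macrophages by lysosomal, lipid-associated, iron and glycolysis RNA on the high side and by resident macrophage RNA on the low side. Of 9252 genes with at least 20 UMIs over both classes, 636 (6.87%) were at least 2-fold higher in members and 831 (8.98%) at least 2-fold lower. These shares are the background for every count below, a fold of 2 is a size and not a test, and many thinly counted genes pass it by counting error. Over 4214 genes with at least 20 UMIs in each class the median log2 ratio was 0.10, so ratios are to be read against that value, and with median-of-ratios scaling 496 genes were higher and 999 lower.

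**Figure D2:**
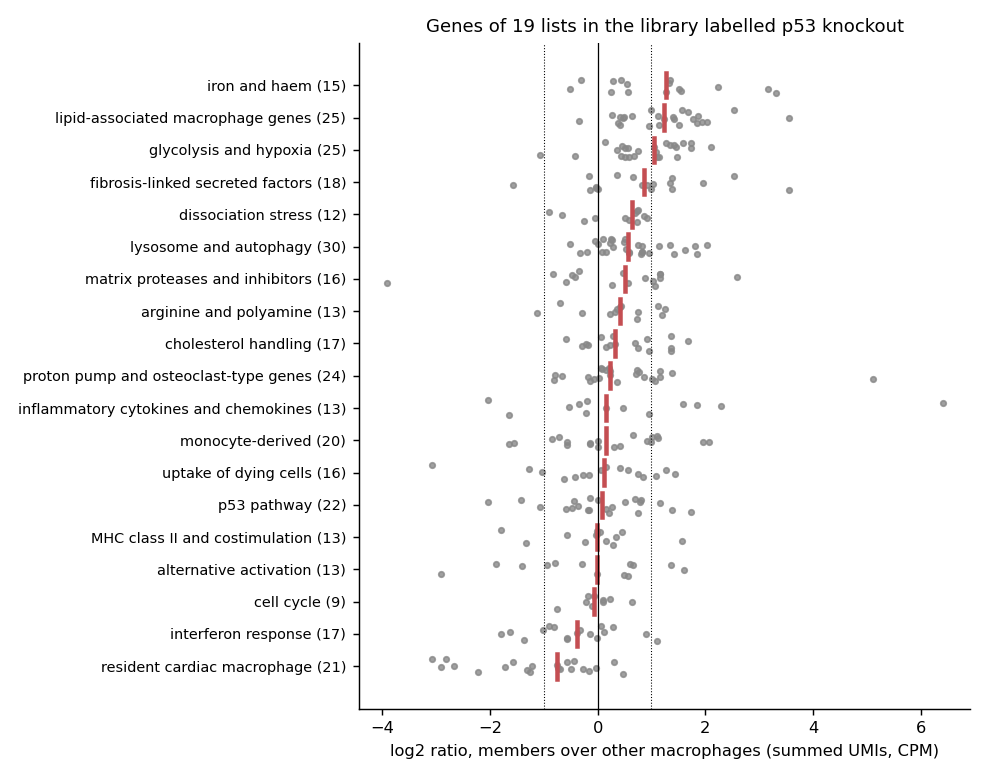
Log2 ratio of summed, scaled UMIs, members over other macrophages of the library labelled p53 knockout, for the genes of 19 lists (1 grey point per gene with at least 20 UMIs, number in brackets, jittered vertically); red bars are list medians, the solid line is no difference and dotted lines mark 2-fold. Over all members, the iron and haem list has the highest median, 1.26, close to 1.24 for the lipid-associated list, and the resident cardiac macrophage list the lowest, -0.76.

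Among secreted and surface proteins, Spp1 and Lgals3, which the rule did not use, were both higher in members. Spp1 stood at 848 CPM (751 to 955) in members and 71.8 CPM (57.0 to 89.2) in other macrophages, a log2 ratio of 3.56 (3.20 to 3.94), with a UMI in 47 of 144 members. Lgals3, a lectin that binds damaged lysosomes and matrix, was at 811 CPM (716 to 916) and 139 CPM (118 to 163), a log2 ratio of 2.54, with a UMI in 75 members. Adam8, a membrane protease of myeloid cells, had 668 CPM (582 to 764) in members and 111 CPM (92.2 to 132) in other macrophages, with a UMI in 73 members and a log2 ratio of 2.59. Of the 18 measured fibrosis-linked secreted factors 7 were at least 2-fold higher and 1 lower, with a median log2 ratio of 0.87. Fn1 (fibronectin) did not separate the classes, at 444 and 443 CPM. Of 16 measured matrix proteases and inhibitors 6 were higher and 1 lower. The lower one was Mmp3 (stromelysin), with 0 UMIs in members and 23.0 CPM in other macrophages, 2.47-fold lower when members are set at 3 UMIs.

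Several lysosomal proteases and 1 subunit of the lysosome's acid pump were higher in members, while most genes of both groups stayed within 2-fold. Of 30 measured lysosome and autophagy genes, 7 were at least 2-fold higher and 0 lower, and their median log2 ratio was 0.56. The protease Ctsd (cathepsin D) was at 1063 CPM (953 to 1181) in members against 260 CPM (231 to 291), with a UMI in 93 of 144 members. Ctsl stood at 441 against 123 CPM, Ctsb at 2104 against 957 CPM, and Npc1, which exports cholesterol from lysosomes, at 208 against 67.3 CPM. At the other end of the list Laptm5 stood at 304 against 434 CPM. Atp6v0d2, a subunit of the vacuolar proton pump known from osteoclasts and some macrophages, stood furthest apart of these genes, with 320 CPM (261 to 388) in members, 8.86 CPM (4.25 to 16.3) in other macrophages and a log2 ratio of 5.11 (4.24 to 6.28). It was found in only 19 of 144 members and in 0.580% of other macrophages. Of 24 measured proton pump and osteoclast-type genes 6 were at least 2-fold higher and 0 lower, with a median of 0.23 that lies close to the 0.10 of all well-counted genes, and the common pump subunits Atp6v0b and Atp6v0c were at 332 against 370 CPM and 214 against 187 CPM. Tfec, a transcription factor of the family that drives lysosomal genes, had a log2 ratio of 1.39.

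Lipid-associated genes were also higher, though the list is not separate from those above. It shares Ctsb, Ctsd, Ctsl, Cd63 and Lipa with the lysosome list, and it also holds Spp1 and Lgals3. Of 25 measured lipid-associated macrophage genes other than those of the rule, 15 were at least 2-fold higher and 0 lower, with a median log2 ratio of 1.24. Plin2, which coats lipid droplets, stood at 553 CPM (475 to 641) in members and 172 CPM (148 to 198) in other macrophages and had a UMI in 72 members. Apoe, the list's lowest, was at 2072 against 2647 CPM, a log2 ratio of -0.35, and Lpl (lipoprotein lipase) at 494 against 358 CPM. In cleaned members Cd36 was at 358 against 305 CPM, and Fabp5 at 118 against 31.9 CPM. Fabp4 moved with the adipocyte-gene barcodes, with a log2 ratio of 0.65 in all members and -0.43 in the 136 cleaned members. Of 17 measured cholesterol genes 4 were at least 2-fold higher and 0 lower. These were the exporters Abca1 (1641 against 642 CPM) and Abcg1 (165 against 63.8 CPM), the esterifying enzyme Soat1 (252 against 98.3 CPM) and Mylip (289 against 90.3 CPM), which, like both exporters, is a target of the sterol-sensing LXR receptors. Insig1, a sterol brake, was the list's lowest at 9.32 against 15.9 CPM.

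Over all members, iron and haem genes had the highest median of the 19 lists, 1.26, close to the 1.24 of lipid-associated genes. Of 15 measured iron and haem genes 8 were at least 2-fold higher and 0 lower. Slc40a1 (ferroportin), the only known cellular iron exporter, stood at 286 CPM (230 to 351) in members and 28.3 CPM (19.4 to 40.0) in other macrophages. Hmox1, which opens haem and frees its iron, was at 631 CPM (547 to 724) against 134 CPM (113 to 157). Slc48a1, which moves haem out of the lysosome, was at 106 against 11.5 CPM, a log2 ratio of 3.16. The ferritin chains Fth1 and Ftl1 were at 1178 against 491 CPM and 972 against 388 CPM, though both have near-identical copies in the genome among which counting may have split reads. Tfrc, the transferrin receptor, was the lowest at 15.5 against 23.9 CPM. Haemoglobin and other red cell genes were not higher, summing to 1740 CPM in members and 1992 CPM in other macrophages. Of the 8 higher genes, Lcn2 and Ncoa4 lost their difference without the mesothelial and adipocyte barcodes, with log2 ratios of -1.30 and 0.05. The median and rank of the list are not given for the 136 cleaned members. Its summed genes were at 3859 CPM in them, against 1632 CPM in other macrophages.

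Glycolysis and hypoxia genes were also higher: 13 of 25 measured were at least 2-fold higher and 1 lower, with a median log2 ratio of 1.04. Pkm, the last enzyme of glycolysis, stood at 488 CPM (414 to 570) in members and 182 CPM (158 to 208) in other macrophages, Vegfa at 336 against 123 CPM, and Aldoa at 249 against 194 CPM. Hilpda, which blocks lipid breakdown on droplets, had the highest ratio of the list at 49.7 against 11.5 CPM, a log2 ratio of 2.10 (0.96 to 3.29). Slc16a3, which exports lactate, was at 115 against 34.5 CPM. Adm (adrenomedullin) was the lowest, at 6.21 against 15.9 CPM. Of 13 measured arginine and polyamine genes besides Arg1, 3 were higher and 1 lower: Ass1, which remakes arginine, Odc1, the first step to polyamines, and Oat were on the high side with 24.9, 28.0 and 65.2 CPM against 10.6, 12.4 and 30.1 CPM, though the intervals of the first pair of ratios reach below 0, and Oaz2 on the low side with 21.8 CPM against 50.5 CPM.

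Resident macrophage genes stood on the other side. None of 21 measured was at least 2-fold higher in members and 10 were at least 2-fold lower, with a median log2 ratio of -0.76. Other macrophages were chosen by UMIs of C1qa, C1qb, C1qc, Mrc1, F13a1 and Csf1r, which members did not need. Of 144 members 37 fell short of that minimum, and 19 had 0 UMIs of these genes. With members held to the minimum too, the list median stayed within its interval of -1.72 to -0.44. The remaining part of this choice was not tested. Cd163, the receptor for haemoglobin bound to haptoglobin, was at 93.2 CPM (62.9 to 133) in members against 714 CPM (665 to 765), and only 8 of 144 members had a UMI of it, against 28.1% of other macrophages. Lyve1 was at 46.6 CPM (26.1 to 76.9) against 304 CPM (272 to 338) and had a UMI in 6 members. Timd4, with 1 UMI in all members, had a log2 ratio of -3.08 (-8.98 to -1.09). Stab1 and Dab2, also of the list, were at 1109 against 1339 CPM and 1081 against 1206 CPM. Outside the lists, the lowest ratios by the fixed ranking included Lifr (77.7 against 462 CPM), the ether lipid enzyme Agmo (93.2 against 477 CPM), Cbr2 (15.5 against 120 CPM) and Abca9 (log2 ratio -1.88). Reln, Lbr, Lilra5 and Ipcef1 had 1 to 3 UMIs in members and log2 ratios of -4.04 (-9.94 to -2.10), -3.65 (-7.03 to -2.08), -3.10 (-5.62 to -1.73) and -3.00 (-5.52 to -1.63). Alox5 and Plekhg5 complete the 12, at log2 ratios of -2.17 and -2.22.

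Other groups split in both directions. Of 13 measured inflammatory cytokines and chemokines 4 were at least 2-fold higher and 2 lower, and the 4 were the chemokines Cxcl3, Ccl2, Ccl7 and Cxcl2, which draw neutrophils or monocytes. Cxcl3 was at 186 CPM (142 to 240) in members against 1.77 CPM, a log2 ratio of 6.41 (4.80 to 9.80), yet only 10 members held it. Its log2 ratio was 2.30 when members needed at least 3 UMIs over the rule genes. That setting also moves barcodes with 2 rule UMIs to other macrophages if they pass the minimum there. In cleaned members, 3 barcodes with exactly 2 rule UMIs held 29 of the 60 Cxcl3 UMIs. Ccl2 was at 317 against 64.7 CPM with 41.2% of its UMIs in 1 barcode, and its log2 ratio was 2.29 with that barcode and 1.54 without it. Of 20 measured monocyte-derived genes 5 were higher and 2 lower, of 13 for alternative activation 2 higher and 3 lower, and of 17 interferon response genes 1 higher and 4 lower. Of 13 MHC class II and costimulation genes 1 was higher and 2 lower, the lower ones being Cd83 (28.0 against 102 CPM) and Cd86 (146 against 368 CPM). Of 16 genes for the uptake of dying cells 3 were higher and 3 lower, with the scavenger receptor Lrp1 at 1852 against 771 CPM. Of 9 measured cell cycle genes 0 passed 2-fold either way, and of 22 genes of the p53 pathway 3 were higher, Mdm2 among them at 311 against 140 CPM, and 3 lower. Of 12 measured dissociation stress genes 0 passed 2-fold, with a median of 0.64. Its part in the other differences was not tested.

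Of the 15 highest genes by the fixed ranking, Nnat, Car3, Cidec and Msln came from the mesothelial and adipocyte barcodes: their log2 ratios of 8.04, 4.94, 5.80 and 2.85 became 1.49, 0.13, 1.49 and -1.60 in the 136 cleaned members. The other 11 kept their place, and Ctsd, Thbs1, Fnip2 and Nav2 took the places left. Besides those described, the 11 included Fat3, a giant cadherin, at 457 CPM (386 to 537) in members against 44.3 CPM (32.9 to 58.4) and with a UMI in 42 members. They also included Shisa9, a gene known from brain synapses, at 168 against 16.8 CPM, and Junos, a transcript opposite to Jun, at 165 against 25.7 CPM. Whether the counting used strand is not given in the sources used here, so Junos reads cannot be told apart from those of Jun, which stood at 146 against 78.0 CPM. Thbs1 (thrombospondin 1) was at 976 against 250 CPM in all members, with UMIs in 28 of 144.

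**Figure D3:**
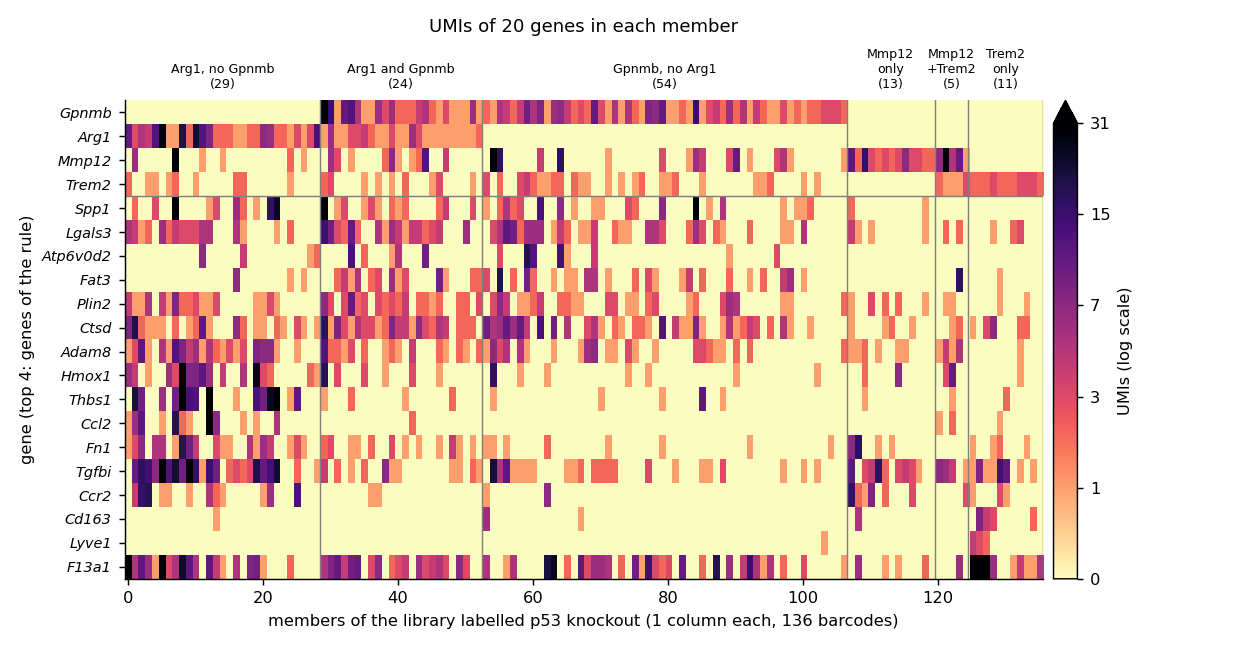
UMIs (colour, log scale, not scaled for depth) of 20 genes in each of the 136 cleaned members of the library labelled p53 knockout, grouped by which rule genes they hold and ordered by total UMIs within a group, with the number of barcodes above. Thbs1, Ccl2 and Hmox1 are strongest in the 29 members with Arg1 and no Gpnmb, and the 11 with Trem2 alone hold 17 of the 30 Cd163 and 9 of the 10 Lyve1 UMIs.

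Members were not uniform, and the rule gene a barcode held went with the remainder of its RNA. Among the cleaned members, 29 held Arg1 and no Gpnmb, 54 held Gpnmb and no Arg1, and 24 held both. The first of these were the deeper barcodes, with a median of 2725 UMIs against 1364, so a gene could be missed more easily on the Gpnmb side, whereas CPM of summed UMIs do not depend on depth in that way. With the adipocyte-gene barcode included (29 against 55 barcodes), 305 of 2359 genes (12.9%) were at least 2-fold higher on the Arg1 side and 300 (12.7%) at least 2-fold lower. Among 658 genes that reached 20 UMIs on each side the median log2 ratio was 0.17, and median-of-ratios scaling gave 234 higher and 386 lower.

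The Arg1 side was higher for several groups of macrophage RNA, monocyte-derived and inflammatory genes most. All 9 measured monocyte-derived genes were at least 2-fold higher there, with a median log2 ratio of 2.64, and 6 of 7 inflammatory cytokines and chemokines were at least 2-fold higher and 0 lower. The former list holds Thbs1, Fn1 and Ccr2 and the latter Ccl2, Cxcl3 and Ccl6, so these genes, named next, are not separate from the counts. In cleaned members Thbs1 was at 3690 CPM on the Arg1 side and 156 CPM on the Gpnmb side, a log2 ratio of 4.52 (3.81 to 5.42), and 15 of 29 barcodes held it against 5 of 54. Ccl2, the ligand that recruits monocytes through the receptor Ccr2, was at 1234 CPM against 0 UMIs, with 43.8% of its UMIs in 1 barcode. It was 39.4-fold higher when the Gpnmb side is set at 3 UMIs, and the interval of its log2 ratio starts at 4.98. Ccr2 itself was at 887 against 83.4 CPM, Fn1 at 1016 against 93.9 CPM, Srgn, a proteoglycan of secretory granules, at 1311 against 136 CPM, and Ccl6 at 810 against 136 CPM. Hmox1, at 1646 against 230 CPM, and Cxcl3, at 656 against 93.9 CPM, complete the 8 highest. Of 8 measured resident macrophage genes 4 were higher on the Arg1 side and 0 lower, with sums of 6994 against 3700 CPM, and they included Dab2 at 2224 against 607 CPM in all members. Cd163 and Lyve1 missed the minimum of UMIs and are not among the 8. In cleaned members Cd163 had 1 UMI on the Arg1 side and 7 on the Gpnmb side, and Lyve1 had 0 and 1. Alternative activation genes were higher in 4 of 6 cases with a median of 1.60, and class II and costimulation genes in 4 of 4 with a median of 2.15, Cd86 among them at 334 against 37.95 CPM in all members. H2-Ab1 missed the minimum of UMIs and did not separate the sides, at 90.0 against 104 CPM in cleaned members, from 7 and 10 UMIs. Cd74 was higher on the Arg1 side, at 399 against 177 CPM in cleaned members. Glycolysis and hypoxia genes were on the same side, 11 of 16 at least 2-fold higher and 0 lower, with a median of 1.31. So were 3 of 8 dissociation stress genes, with 0 lower, while 4 of 8 cardiomyocyte markers were at least 2-fold lower on the Arg1 side and summed to 1363 against 2874 CPM. Their part in the differences was not tested.

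Of the genes higher on the Gpnmb side, Fat3 ranked first in cleaned members. It was at 814 CPM there against 116 CPM on the Arg1 side, a log2 ratio of Arg1 over Gpnmb members of -2.75 (-4.00 to -1.81), and 23 of 54 barcodes held it against 3 of 29. Atp6v0d2 was at 584 against 180 CPM, though 8 and 4 barcodes held it. Lyst, which shapes lysosomes, was at 761 against 206 CPM, and Zdhhc14, Myof, Gpcpd1, Nrp1 and Nav1 had log2 ratios between -1.48 and -1.33. Before the adipocyte-gene barcode was left out, the 8 lowest were Nnat, Cidec, Car3, Olfr1033, Ghr, Acsl1, Sik2 and Fat3. Of these Ghr, Acsl1 and Sik2 had log2 ratios of -2.84, -2.85 and -2.71 with that barcode and 0.071, -1.13 and -0.39 without it. The lysosome list did not separate the sides, with 1 of 26 measured genes at least 2-fold higher and 4 lower, nor did the lipid-associated list, with 5 of 24 higher and 4 lower.

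Members were also split by the single rule gene they held, which added 2 more kinds. Barcodes with Arg1 alone or Gpnmb alone are part of the sides compared above. Their values describe that division again and do not add to it. The 16 cleaned members with Arg1 alone held Thbs1 at 6978 CPM (6129 to 7910) in 10 of 16 barcodes, Tgfbi at 5634 CPM and Srgn at 2631 CPM. Their summed monocyte-derived genes came to 14470 CPM. That list itself holds Thbs1, which gave 244 of the 506 UMIs, 79 of them in 1 barcode, and Fn1, which gave 62. The 19 with Gpnmb alone held Thbs1 at 69.2 CPM and their monocyte-derived genes summed to 657 CPM. The 24 with both Arg1 and Gpnmb were near the second, with Thbs1 at 114 CPM, Ccl2 at 37.9 CPM and Fat3 at 776 CPM. Summed glycolysis and hypoxia genes were at 8751 CPM with Arg1 alone and at 2283, 2779 and 2116 CPM with Gpnmb, Mmp12 or Trem2 alone. Other macrophages had 2010 CPM. Iron and haem genes were at 6634, 1972, 2147 and 1953 CPM in the same order, against 1632 CPM. Lipid-associated genes were at 10350, 14360, 5052 and 8464 CPM, against 7145 CPM. These groups, and those with Mmp12 or Trem2 alone, were chosen after their values were seen, hold few barcodes each and have no test.

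The 13 cleaned members with Mmp12 alone carried MHC class II RNA. H2-Ab1 stood at 4863 CPM (4125 to 5694) in them, with a UMI in 8 of 13, against 242 CPM with Gpnmb alone and 143 CPM with Arg1 alone, and Cd74, the invariant chain of class II, at 6947 CPM. They also held Ccr2 at 1010 CPM and Itgax (CD11c) at 568 CPM, and had C1qa at 284 CPM, below the 772 CPM of other macrophages. The dendritic cell markers Flt3, Cd209a and Zbtb46 were each found in 1 of the 13. The 11 cleaned members with Trem2 alone carried resident macrophage RNA. Cd163 was at 922 CPM (537 to 1477) and Lyve1 at 488 CPM (223 to 927), intervals that hold the 714 and 304 CPM of other macrophages, and Spp1 and Atp6v0d2 were at 0 UMIs. In the 27 members with 10 or more rule UMIs, Cd163 and Lyve1 were at 0 UMIs, and Spp1 was at 1937 CPM.

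**Figure D4:**
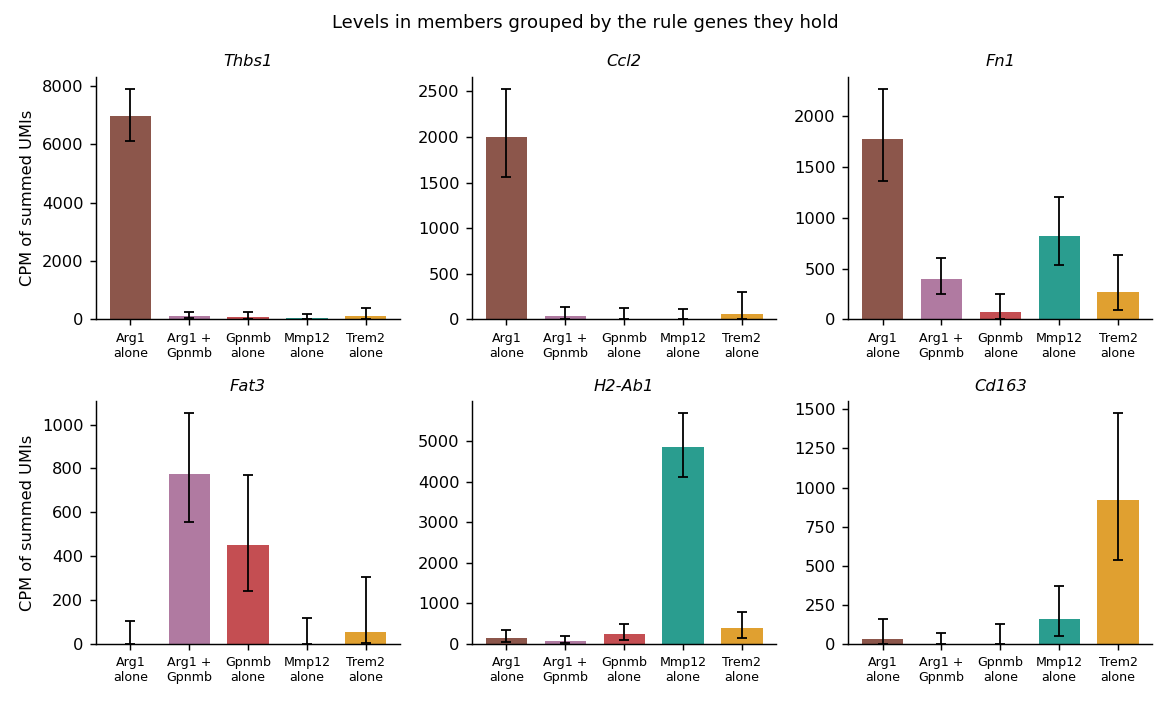
CPM of summed UMIs for 6 genes in cleaned members of the library labelled p53 knockout that hold Arg1 alone (16 barcodes), both Arg1 and Gpnmb with or without the other rule genes (24), Gpnmb alone (19), Mmp12 alone (13) or Trem2 alone (11); error bars are exact 95% Poisson intervals. Thbs1 reaches 6978 CPM with Arg1 alone, H2-Ab1 4863 CPM with Mmp12 alone and Cd163 922 CPM with Trem2 alone.

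The same division was then looked for in the few members of the library labelled wild-type. H2-Ab1 was at 3764 CPM (2766 to 5005) in the 6 barcodes with Mmp12, all 6 of which held it, and at 329 CPM (107 to 768) in the 10 with Trem2 alone, 2 of which did. Cd74 was at 6727 CPM (5366 to 8328) and 724 CPM (361 to 1295) in the same barcodes. Cd163 and Lyve1 were at 855 CPM (456 to 1463) and 1053 CPM (602 to 1710) in the 10 with Trem2 alone and at 80.1 CPM, 1 UMI each, in the 6 with Mmp12. Each was found in 4 of the 10, and the barcode richest in the gene held 7 of 13 Cd163 and 10 of 16 Lyve1 UMIs. The single member with Arg1 and the 4 with Gpnmb are too few to compare.

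Against other macrophages of the same library, members of the library labelled wild-type showed the largest excess for H2-Aa (1449 against 433 CPM), H2-Ab1 (1681 against 536 CPM) and Cd74 (3449 against 1318 CPM), followed by Gsn (gelsolin) and Apoe with log2 ratios of 0.93 and 0.74. The 5 lowest, Flt1, Nfxl1, Plcb4, Phka2 and Eef2, had 0 UMIs in the 21 members and were 2.40-fold to 3.58-fold lower with members set at 3 UMIs. Lgals3 was at 145 CPM (47.0 to 338) against 31.2 CPM, and Cd163 was at 493 CPM (287 to 789) against 801 CPM. Spp1 was at 0 UMIs, where 3 counts would be 86.9 CPM.

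Between the libraries, members carried more Spp1, Thbs1 and Atp6v0d2 and less class II and resident macrophage RNA in the library labelled p53 knockout. Of 4437 measured genes 979 (22.1%) were at least 2-fold higher there and 644 (14.5%) at least 2-fold lower, from 34503 nuclear-encoded UMIs in the 21 members on the other side. With median-of-ratios scaling the split was 1759 higher and 198 lower, since 164 genes with at least 20 UMIs in both sets of members had a median log2 ratio of -0.61. That minimum favours genes that are high in the 21 members, whereas the median over all 4437 measured genes was 0.056. The zero point of ratios between the libraries is therefore uncertain. Cardiomyocyte markers summed to 1917 CPM in members of the library labelled p53 knockout and 3333 CPM in the others, and red cell genes to 1740 and 232 CPM. Their part in the differences was not tested. Thbs1 was at 976 CPM (871 to 1090) against 0 UMIs, 11.2-fold higher when the 21 members are set at 3 UMIs. Spp1 was 9.76-fold, Fmn1 6.25-fold, Fat3 5.25-fold, Dmxl2 4.22-fold and Atp6v0d2 3.68-fold higher on that scale. Nnat and Car3, also among the 8 highest, came from the adipocyte-gene barcode.

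Several of these differences were present in other macrophages too. Thbs1 stood at 250 CPM in other macrophages of the library labelled p53 knockout and 26.4 CPM in those of the library labelled wild-type, and Spp1 at 71.8 and 2.93 CPM. Fmn1 was at 293 and 129 CPM. Atp6v0d2, at 8.86 and 3.90 CPM, rested on 10 UMIs in 4 barcodes in the first of these, too few to read as a difference. Thbs1 was also at 204 and 9.38 CPM in endothelial barcodes. The low side included Mctp1 (log2 ratio -2.13 in members and -1.07 in other macrophages), Psd3 (-2.13 and -0.71), Cd74 (-1.90 and -0.27), Tmcc1 (-1.90 and -0.31), Rbpj (-1.62 and -0.38) and H2-Ab1 (-1.57 and -0.19). Gsn had a ratio of -2.11, with 68.4% of its UMIs in members of the library labelled wild-type in 1 barcode.

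By list, members of the library labelled p53 knockout had 5 of 8 measured class II genes and 8 of 13 resident macrophage genes at least 2-fold lower, and 12 of 24 lipid-associated genes at least 2-fold higher with 0 lower. These counts stand beside the difference in makeup: members with Trem2 alone were 17 of 144 there, against 10 of 21 on the wild-type side. Members with Mmp12, which held the highest H2-Ab1 and Cd74 levels on the wild-type side, were 6 of 21 there, 4 of them with Mmp12 alone. Under the p53 knockout label they were 51 of 144, 14 of them with Mmp12 alone. The part of this makeup in the ratios was not tested.

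**Figure D5:**
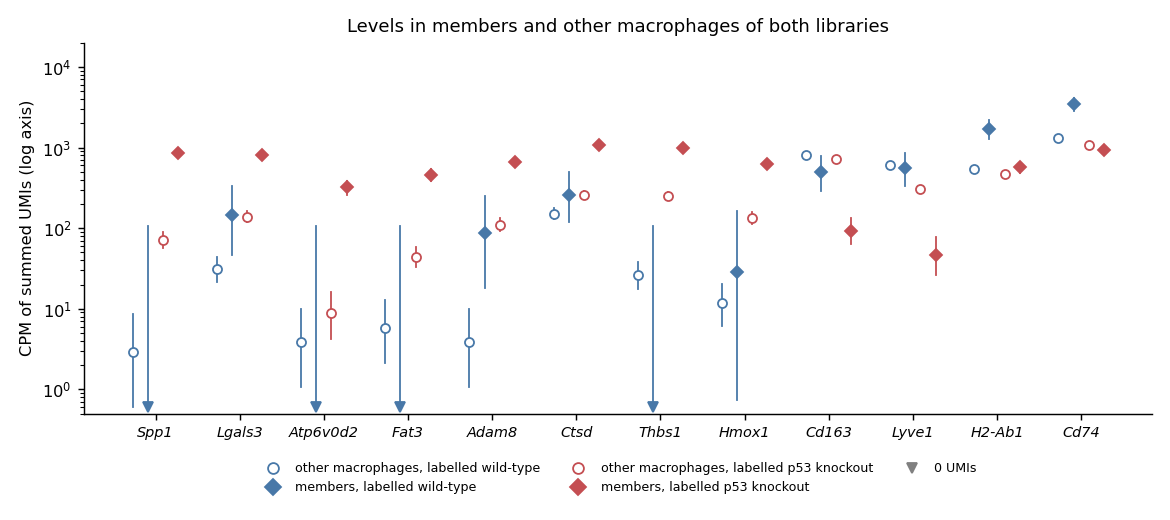
CPM of summed UMIs (log axis) for 12 genes in members (filled diamonds) and other macrophages (open circles) of the libraries labelled wild-type (blue) and p53 knockout (red), with exact 95% Poisson intervals; triangles at the lower edge mark 0 UMIs. Spp1, Atp6v0d2, Fat3 and Thbs1 have 0 UMIs in the 21 members of the library labelled wild-type, and Cd163 and Lyve1 are lowest in members of the library labelled p53 knockout.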

How the data were processed

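Single-cell RNA was measured in 2 libraries. The deposited values are UMI counts per gene and barcode, not normalized, for 32589 gene identifiers. The submitters' processing notes list mm10 as the build and Cell Ranger and Seurat as tools of the authors. Strand setting, cell filters and whether whole cells or nuclei were loaded are not given in the sources used here. A 10x kit is named in the labels, but the barcodes are split into blocks, which is not that kit's form.

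Barcodes were assigned by summed UMIs of the rule genes, UMIs were added up per library and class, and levels are CPM of nuclear-encoded UMIs with exact Poisson intervals. Ratios have 0.5 UMI added to each sum and exact conditional binomial intervals, and shares have Clopper-Pearson intervals at 95%. The confidence level covers counting error only, so depth limits what the 21 members of the library labelled wild-type can show. A gene at 0 was set at 3 counts. Folds against that value leave out counting error and are not interval bounds. Python 3.11.15, numpy 2.4.6, scipy 1.17.1, scanpy 1.11.5 and matplotlib 3.10.9 were used, and ratios and intervals were tested on simulated counts. Positions are from GENCODE vM21, which held 32522 of the identifiers.

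All deposited barcodes were kept. Scrublet's automatic threshold marked 0 barcodes in either library, so no doublets were removed in the values given. An alternative left out the 8% with the highest scores, which removed 4.76% and 3.47% of members against 7.02% and 9.71% of other macrophages.

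Endothelial barcodes, used for free RNA, held at least 5 UMIs over Pecam1, Cdh5, Kdr, Flt1 and Emcn and none of the immune genes. Genes were named by rank of the ratio after adding 20 CPM to each side. They needed at least 50 UMIs in the higher class and a CPM there of at least 0.5 times that over all barcodes. Mitochondrial, ribosomal protein, haemoglobin, sex-linked, unnamed and rule genes were left out. Of each of 28 gene lists, genes with the most UMIs and with the highest and lowest ratio were eligible for naming. Members, lists and the naming rule were chosen with earlier results of these data known. Values of a few genes that met the naming rule are not reported here.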

Additional observations from a re-analysis of the deposited data

Results flagged for a closer look

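The ratio of members over other macrophages had opposite signs in the libraries for 5 named genes, and in each case the difference was not tested. Lilra5, a receptor of myeloid cells, had a log2 ratio of -3.10 (3 UMIs in members) in the library labelled p53 knockout and 1.51 (12 UMIs) in the library labelled wild-type. Cd74 had -0.23 and 1.39. Gsn had -0.71 and 0.93, the second with 54 of 79 UMIs in 1 barcode. Apoe had -0.35 and 0.74. Fmn1, a formin that builds actin filaments, had 0.89 and -3.16. The second comes from 0 UMIs in 21 members, so it depends on the 0.5 UMI added and is no bound. With members set at 3 UMIs, also no bound, the gene was 1.48-fold lower than in other macrophages.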

How the results depend on the processing

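No paired analysis was possible because each group has 1 library. Shares of macrophages in the libraries labelled wild-type and p53 knockout were 1.27% and 12.6% with at least 3 UMIs over the rule genes, 1.17% and 14.1% without Trem2 and 1.11% and 9.42% after thinning, and 22.4% in the second with at least 5 comparator UMIs. Over all barcodes they were 0.0747% and 1.02%, 0.0685% and 1.15%, and 0.0498% and 0.514% under the first 3 settings. Barcodes that were no longer members with at least 3 UMIs or without Trem2 counted as other macrophages if they met the comparator minimum. Gene counts followed the minimum of UMIs: with at least 50 and at least 1 UMI, 302 and 1927 genes were higher and 371 and 1856 lower in members than in other macrophages, 381 and 1957 higher and 135 and 4045 lower between libraries, and 78 and 2408 higher and 55 and 3363 lower on the Arg1 side. Median-of-ratios scaling between libraries gave 1759 higher and 198 lower; it rests on 164 genes with at least 20 UMIs in both classes, whose median log2 ratio was -0.61, and so shifts every ratio up by construction. Of 625 values of named genes under alternatives, 11 changed sign. Msln went to -2.37 without Trem2 in the rule and to -1.60 without mesothelial and adipocyte barcodes. The ratio between libraries went to -0.25 for Car3 and -2.32 for Nnat without those barcodes, and to -0.0082 and -2.44 without the barcode richest in the gene. The Arg1 over Gpnmb ratio went to 2.62 for Car3 and 0.071 for Ghr under either setting. For Nnat no UMI is left on either side, and the 0.30 obtained is only the ratio of the 0.5 UMI added to each sum, so it is no reversal. Of 198 list medians under alternatives, 4 moved: without Trem2 the resident list was at -1.73 and the interferon list at -1.05, the interferon list was at -0.99 without mesothelial and adipocyte barcodes, and the cell cycle list was at 0.32 with cells weighted equally. The settings without mesothelial and adipocyte barcodes, without the richest barcode and for the Arg1 comparison were added after the data were seen. Depth limits the 21 members of the library labelled wild-type, where 3 UMIs are 86.9 CPM.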
